A study of Homo sapiens with 19 samples.

Results

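The mature microRNAs of Caco-2 cells were compared with those found outside the cells. Caco-2 is an established human colorectal epithelial line. Of the 19 libraries of the series, 7 enter this comparison: 4 of total extracellular RNA (total exRNA, replicates 1 to 4) and 3 of cell lysate (replicates 1 to 3). All cells had first been kept in medium with 20% fetal bovine serum. At 80% confluence they were moved to medium free of serum and antibiotics for 24 h. The conditioned medium was spun to clear debris, and total exRNA was then precipitated from it and cleaned with Trizol, whereas RNA of the cells was taken up in Trizol with no precipitation. Compartment and RNA preparation therefore cannot be told apart in any value below. No label says that the replicates came from separate cultures, so the tests measure the spread between these libraries only. A total of 742 human miRNAs had a count in the 7 libraries, of 1043 listed in the series. After a filter on low counts, 227 were tested, and these held 98.7% to 99.0% of the counts of each library.

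A miRNA is cut from a hairpin in a longer transcript. Either arm of the hairpin, called 5p or 3p, can be loaded into an Argonaute protein and serve as the mature guide. Bases 2 to 8 of the guide, the seed, do most of the pairing with target mRNAs, so miRNAs with 1 seed form a family even when they come from different chromosomes. Neighbouring hairpins are often made from 1 shared transcript, and then their mature products share a source but need not share a seed. In gut epithelium the miR-200 family, which holds back the zinc-finger repressors ZEB1 and ZEB2, and the miR-192 and miR-194 transcripts are known as characteristic miRNAs. Cells release miRNAs bound to proteins, in vesicles and with cell debris. The forms that stay in the medium after the spin that clears debris are counted together in total exRNA.

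The sequences below are those on which the results turn. They were taken from RefSeq (GRCh38.p14) and are written 5′ to 3′ with the seed in capitals. The first set belongs to the 2 arms of the miR-194 hairpin and to the most frequent miRNA of the lysate with its seed mates.
miR-194-5p: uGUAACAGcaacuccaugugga
miR-194-3p: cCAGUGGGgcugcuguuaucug
miR-92a-3p: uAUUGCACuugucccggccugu
miR-92b-3p: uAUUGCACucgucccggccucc
miR-25-3p: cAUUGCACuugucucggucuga
The second set shows members of the miR-200 family. The seeds of its 2 branches differ by 1 base, and the summed counts of the branches were called in opposite directions, although miR-200b-3p and miR-429 were not called.
miR-200c-3p: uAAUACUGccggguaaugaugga
miR-200b-3p: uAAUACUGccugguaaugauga
miR-429: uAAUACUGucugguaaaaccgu
miR-141-3p: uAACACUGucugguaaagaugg
miR-200a-3p: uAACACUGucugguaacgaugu
The third set holds neighbours and close copies. miR-23b and miR-27b sit together on chromosome 9, and the miR-23 pair and the miR-27 pair each differ at 1 of the first 21 positions, position 19.
miR-23a-3p: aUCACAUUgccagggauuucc
miR-23b-3p: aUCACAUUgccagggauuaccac
miR-27a-3p: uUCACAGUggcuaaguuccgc
miR-27b-3p: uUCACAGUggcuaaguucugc
miR-21-5p: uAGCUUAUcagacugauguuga
let-7a-5p: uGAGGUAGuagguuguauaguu
The fourth set holds entries that were nearly or wholly missing from the lysate, with miR-744-5p, which has the seed of miR-10396a-5p.
miR-663a: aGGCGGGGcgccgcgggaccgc
miR-663b: gGUGGCCCggccgugccugagg
miR-10396a-5p: gGCGGGGCucggagccggg
miR-10396b-5p: cGGCGGGGcucggagccggg
miR-744-5p: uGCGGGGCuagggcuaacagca
miR-5100: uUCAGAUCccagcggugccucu
The 19 bases of miR-10396a-5p lie whole within miR-10396b-5p, so the split of reads between these entries is uncertain. miR-663a and miR-663b share no run longer than 4 bases. Copies as close as the miR-23, miR-27, miR-103a and miR-107, miR-301 and let-7 members may also have exchanged reads, since the handling of reads with several matches is not given in the sources used here.

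Total exRNA libraries held 34427 to 61622 counts and 384 to 438 miRNAs, and lysate libraries 37453 to 157051 counts and 325 to 471 miRNAs. A floor of 3 counts equals 44.4 to 83.3 CPM (counts scaled to 1e+06 per library) in total exRNA and 22.2 to 105 CPM in lysate. CPM below carry a TMM scaling factor for each library (a trimmed mean that lets most miRNAs keep their level), so they are shares of the miRNA counts and not amounts of RNA. In these bulk samples fewer cells of a type and less RNA per cell cannot be told apart. Replicate 2 of total exRNA stood apart. Its Spearman correlation with the other 3 total exRNA libraries was 0.830 to 0.841 over the tested miRNAs, against 0.932 to 0.954 among those 3. It is included throughout. Of the results described below, miR-16-5p, miR-301b-3p, the miR-196 and miR-200a/b 5p seeds and the arm ratio of miR-200b lost their calls without it. Other calls lost without it are named where they are described. For a gut epithelial identity, all 15 listed markers had counts, and together they took 4.76, 5.72, 4.84 and 4.85% of the counts in total exRNA and 5.12, 6.58 and 6.57% in lysate. Of the 13 tested ones, 2 were higher and 4 lower in total exRNA, beside 18.9% higher and 16.3% lower over all tested miRNAs.

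Of the 227 miRNAs, 43 (18.9%) were higher in total exRNA and 37 (16.3%) lower, by the quasi-likelihood test of edgeR at an adjusted p below 0.05. The 3 lysate and 4 total exRNA libraries did not overlap for 70 of these 80, and over all 227 miRNAs the total exRNA libraries all lay above the lysate in 19.4% and all below it in 22.9%. For 77 of the 80 the direction was the same in all 3 batches that hold both groups. This follows almost of itself where the groups do not overlap, so it adds little. The split depends on the scaling. With library size alone it was 47 higher and 19 lower, and with DESeq2 50 higher and 28 lower, as the median log2 fold change of the tested miRNAs moved up by 0.32 and 0.22. No called miRNA named here turned its direction under any alternative.

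The largest single block of lysate counts was miR-92a-3p, a product of the growth-promoting miR-17~92 transcript and of its X-linked copy. In lysate replicates 1 to 3 it stood at 437709, 334111 and 261642 CPM, and in total exRNA replicates 1 to 4 at 140929, 104278, 123876 and 91608 CPM. All total exRNA libraries lay below all lysate libraries (log2 fold change -1.58 ± 0.27 (SE), adjusted p = 9.28e-05), with within-batch log2 differences of -1.63, -1.68 and -1.08. miR-103a-3p, known as a regulator of insulin signalling, also fell, from 67316, 45379 and 77779 CPM to 32735, 16455, 29457 and 33988 CPM (log2 fold change -1.17 ± 0.34 (SE), adjusted p = 0.00998); without cell lysate replicate 3 the adjusted p was 0.0742. miR-200c-3p fell from 49169, 49701 and 46123 to 27570.3, 28470.5, 24886 and 26519 CPM (log2 fold change -0.85 ± 0.24 (SE), adjusted p = 0.00934), with no overlap and little spread in either group; without cell lysate replicate 2 the adjusted p was 0.0598, and with library size alone 0.0917.

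Other frequent miRNAs were not called lower outside. miR-373-3p, a product of the stem-cell cluster on chromosome 19, held 48681, 67321 and 61991 CPM in lysate and 56497, 83443, 48665 and 50011 CPM in total exRNA, and the groups overlapped (log2 fold change 0.01 ± 0.29 (SE), adjusted p = 0.992). miR-93-5p of the MCM7 gene held 36956, 38815 and 51407 CPM in lysate and 24309.8, 19296, 27208 and 47373 CPM in total exRNA, again with overlap (log2 fold change -0.52 ± 0.34 (SE), adjusted p = 0.253). The entry miR-7704 took the second largest mean in total exRNA, 149067, 37245, 106972 and 61840.1 CPM, against 59115, 21054 and 21056 CPM in lysate. Its groups overlapped (log2 fold change 1.40 ± 0.50 (SE), adjusted p = 0.0362), and its call was lost in 4 of 7 fits that leave out 1 library, with the highest adjusted p, 0.132, without cell lysate replicate 2.

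**Figure D1:**
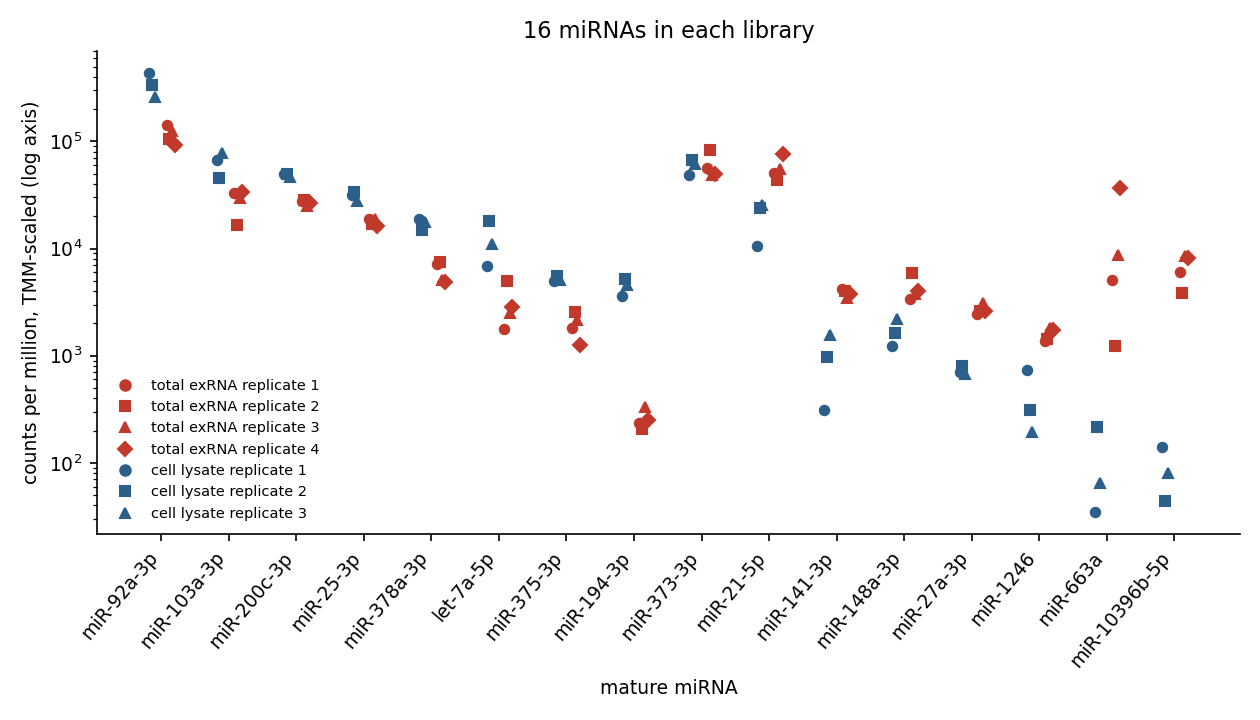
TMM-scaled CPM (vertical log axis) of 16 mature miRNAs (horizontal axis) in each of 3 cell lysate libraries (blue) and 4 total exRNA libraries (red), with the symbol giving the replicate. The red points lie below the blue ones for the 8 miRNAs from miR-92a-3p to miR-194-3p, overlap with them for miR-373-3p, and lie above them for the 7 from miR-21-5p to miR-10396b-5p.

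The losses among classical miRNAs came from several families. miR-194-3p, the 3p arm of an epithelial hairpin, stood at 3594, 5232 and 4607 CPM in lysate and 235, 207, 332 and 249.9 CPM in total exRNA (log2 fold change -4.12 ± 0.42 (SE), adjusted p = 6.14e-08), so the lowest lysate library was over the highest total exRNA library by a wide margin. miR-25-5p, from the less frequent arm of its hairpin, went from 628, 1080.5 and 886 to 183, 118, 73.7 and 167 CPM (log2 fold change -2.71 ± 0.48 (SE), adjusted p = 1.21e-04). For miR-378a-3p, made from an intron of PPARGC1B (chr5:149732825-149732890, GRCh38), a coactivator gene of mitochondrial metabolism, the lysate held 18669.7, 15045 and 17640.4 CPM and total exRNA 7173, 7488, 5032 and 4832 CPM (log2 fold change -1.48 ± 0.25 (SE), adjusted p = 9.28e-05). None of these 3 miRNAs overlapped between the groups, and each kept its call when any 1 library was left out.

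miR-375-3p, a miRNA of endocrine and mucosal epithelium, was at 4955, 5498 and 5059 CPM in lysate and at 1826, 2575, 2138 and 1249.6 CPM in total exRNA (log2 fold change -1.40 ± 0.31 (SE), adjusted p = 0.00115). miR-483-5p, made from an intron of the growth factor gene IGF2, was at 26905, 17953 and 18478 CPM in lysate and at 5321, 7192, 5106 and 6470.0 CPM in total exRNA (log2 fold change -1.81 ± 0.28 (SE), adjusted p = 3.22e-05). Neither overlapped between the groups. The 3p partner, miR-483-3p, was also lower (log2 fold change -2.20 ± 0.55 (SE), adjusted p = 0.00294), but its lysate values ran from 532 to 3734 CPM and the call was lost without cell lysate replicate 1 (adjusted p = 0.0752). The entry miR-10395-3p had 3 counts in the 4 total exRNA libraries together and 260 in the 3 lysate libraries, a ratio of shares of 0.0133 (95% counting interval 0.00272 to 0.0393). The 12 largest falls without overlap also took in miR-1247-5p (-2.63), miR-197-3p (-2.14), miR-744-5p (-1.98), miR-1180-3p (-1.98), miR-338-5p (-2.0) and miR-12136 (-1.83), all on the log2 scale. Of these, miR-338-5p, miR-1180-3p and miR-12136 lost their calls in 1 or more leave-one-out fits, with adjusted p up to 0.183, 0.0598 and 0.0639, the first 2 without cell lysate replicate 2 and the last without total exRNA replicate 4. miR-338-5p also lost it with the replicate block (adjusted p = 0.0976).

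Among classical miRNAs that rose, miR-21-5p was the most frequent. It is a growth- and inflammation-linked miRNA whose hairpin lies in an exon of VMP1 in the annotation used (chr17:59841266-59841337, GRCh38). It was at 10609, 24051 and 25277 CPM in lysate and 50498, 43949, 54730.2 and 77057 CPM in total exRNA (log2 fold change 1.5 ± 0.35 (SE), adjusted p = 0.0018), with every total exRNA library above every lysate library. miR-141-3p was at 314, 969 and 1563 CPM in lysate and at a narrow 4173, 3995, 3429 and 3804 CPM in total exRNA (log2 fold change 1.99 ± 0.40 (SE), adjusted p = 3.8e-04). miR-27a-3p, a regulator of lipid metabolism, was at 698, 799 and 677 CPM in lysate and 2426, 2619, 3115 and 2638 CPM in total exRNA (log2 fold change 1.89 ± 0.34 (SE), adjusted p = 1.26e-04). These 3 rises held without any single library.

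miR-148a-3p, a miRNA of digestive epithelium that targets DNA methyltransferase mRNA, stood at 1221, 1628 and 2191 CPM in lysate and 3417, 5904, 3779 and 4054 CPM in total exRNA (log2 fold change 1.34 ± 0.40 (SE), adjusted p = 0.0136). Here too the groups did not overlap and no single library carried the call. Several other rises were less secure. miR-16-5p, a brake on the cell cycle, rose from 6700.2, 11863 and 13033 to 16406, 16810, 18950 and 19521 CPM (log2 fold change 0.76 ± 0.30 (SE), adjusted p = 0.0479); although the groups did not overlap, the call was lost in 6 of 7 leave-one-out fits (adjusted p up to 0.192, without cell lysate replicate 1) and with the replicate number as a block (adjusted p = 0.0836). miR-372-3p, next to miR-373 on chromosome 19, had 18111, 27788 and 16561 CPM in lysate and 28457, 83399, 27116 and 29989.8 CPM in total exRNA (log2 fold change 1.02 ± 0.37 (SE), adjusted p = 0.0391). The high value is that of replicate 2, and without it the log2 fold change was 0.39 (adjusted p = 0.363). With the replicate block its adjusted p was 0.0602.

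Many of the largest rises were entries that share sequence with other RNA classes. A list made by hand names entries within ribosomal RNA (rRNA) sequence, among them miR-663a, miR-3648 and the miR-10396 pair. Ribosomal RNA is the most abundant RNA of a cell, and its fragments enter small RNA libraries. All 7 tested entries of this list were higher in total exRNA and none lower, against 18.9% higher over all tested miRNAs (the filter favours entries that are high in 1 group, and several of the 7 had next to no lysate counts), with a median log2 fold change of 6.44 (all tested, 0.01). An eighth entry, miR-6724-5p, did not pass the filter and went the other way, with 1, 1, 3 and 4 counts in total exRNA and 23, 12 and 0 in lysate. The share of all listed entries together was 1.89, 1.01, 3.23 and 6.33% of the counts in total exRNA replicates 1 to 4. In lysate it was 0.0828, 0.0586 and 0.0258%. Replicate 4 had the highest share and replicate 2 the lowest among the total exRNA libraries, and all lay above all lysate libraries.

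**Figure D2:**
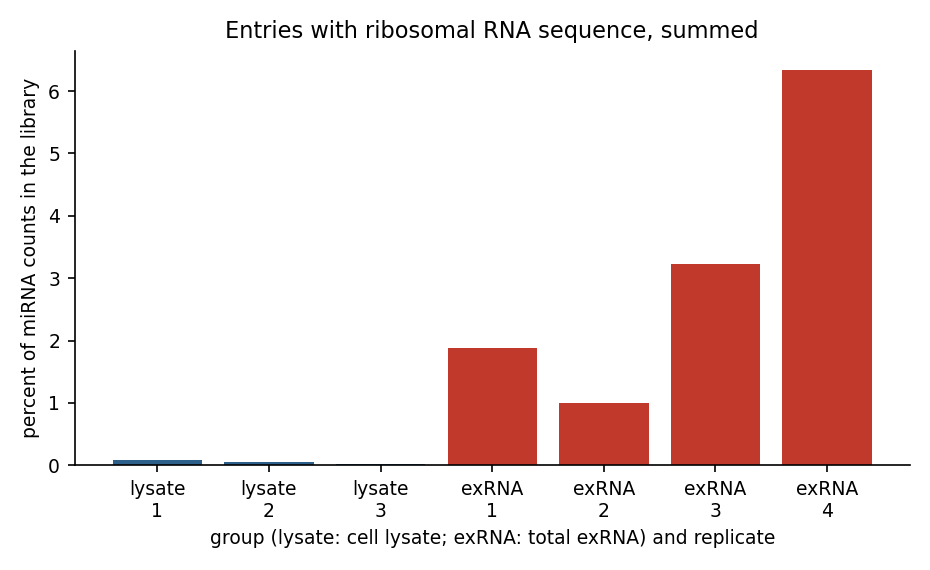
Percent of all miRNA counts (vertical axis) that fell on entries with ribosomal RNA sequence, summed, in 3 cell lysate libraries (blue bars) and 4 total exRNA libraries (red bars). The total exRNA libraries range from 1.01% to 6.33% and the lysate libraries from 0.0258% to 0.0828%.

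miR-663a had 197, 83, 472 and 1322 counts in total exRNA replicates 1 to 4 and 1, 29 and 4 in lysate replicates 1 to 3 (log2 fold change 6.66 ± 1.00 (SE), adjusted p = 3.22e-05). Its spread in total exRNA was wide, and without replicate 4 the log2 fold change was 5.45. miR-663b had 71, 64, 165 and 252 counts in total exRNA and 0 in every lysate library. Set against a floor of 3 counts over the lysate group, its share was at least 212-fold higher. miR-10396b-5p had 233, 258, 463 and 293 counts in total exRNA and 4, 6 and 5 in lysate (log2 fold change 6.44 ± 0.51 (SE), adjusted p = 8.55e-10). Its copy miR-10396a-5p had 769 counts over total exRNA and 1 over lysate, a ratio of shares of 885 (95% counting interval 158 to 35014). The MIR10396 hairpins lie on chromosome 21, at chr21:8987617-8987665 and chr21:8436324-8436374 (GRCh38). The search for host genes left out rRNA and small RNA genes, so it cannot show whether these hairpins lie in an rRNA gene.

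Other entries were likewise missing from the lysate. miR-5100, tRNA-like by the same hand-made lists, had 114, 37, 138 and 81 counts in total exRNA and 0 in each lysate library, at least 142-fold higher. The 131 counts of miR-4466 over total exRNA put its share at least 50.3-fold higher, and the 90 counts of miR-619-5p, an entry with repeat sequence, at least 34.5-fold. miR-3960 had 4, 3, 7 and 16 counts in total exRNA (11.5-fold or more above the floor), and the 48 counts of miR-10394-3p (18.4-fold or more) included 30 in replicate 3. miR-1273h-5p, which did not pass the filter, had 58 counts in total exRNA and 0 in lysate (at least 22.3-fold). The reverse case, 30 or more counts in lysate and none in total exRNA, did not occur. miR-9901 and miR-10401-5p completed the 12 largest rises, with 166, 161, 161 and 43 and 111, 14, 97 and 136 counts in total exRNA against 1, 11 and 0 and 0, 3 and 4 in lysate.

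The entries of other RNA classes did not move as 1 group. Together with the rRNA list, 15 of 50 entries were tested, and 11 were higher and 1 lower, beside 18.9% and 16.3% over all tested miRNAs. Of the 11, 7 are the rRNA entries above, and miR-5100 and miR-619-5p had 0 lysate counts, which the filter favours. All these entries together took 5.36, 1.94, 5.89 and 8.36% of the counts in total exRNA. In lysate they took 3.34, 2.23 and 1.76%, so the groups overlapped. miR-1246, an entry with U2 small nuclear RNA sequence, was at 733, 311 and 193 CPM in lysate and 1382, 1435, 1807 and 1722 CPM in total exRNA, with no overlap (log2 fold change 2.03 ± 0.44 (SE), adjusted p = 9.19e-04). miR-4454, the most frequent tRNA-like entry, was not called, with 36607, 21838 and 15353 CPM in lysate and 22328, 3596, 12793 and 10829.6 CPM in total exRNA (log2 fold change -0.99 ± 0.52 (SE), adjusted p = 0.155). The mitochondrial pair moved apart: miR-4485-3p was called higher (log2 1.56 ± 0.57, groups overlapping) and miR-12136 lower (-1.83 ± 0.58). The call of miR-4485-3p was lost in 4 of 7 leave-one-out fits, with adjusted p up to 0.157 (without cell lysate replicate 2).

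The miRBase number, which grows with the date of discovery, was set beside the calls. Of 28 tested entries numbered 3000 or above, 20 (71.4%) were higher and 2 lower, with a median log2 fold change of 3.48. The share over all tested miRNAs was 18.9% higher and 16.3% lower. The filter favours entries that are high in 1 group, and some of the 28, such as miR-5100 and miR-4466, had 0 lysate counts. They also include entries of the rRNA list, such as miR-10396a-5p. Of 189 numbered below 1000, 22 (11.6%) were higher and 32 (16.9%) lower, with a median of -0.05. Between these classes, from 1000 to below 3000, 10 entries were tested. Among them 1 (10%) was higher and 3 (30%) lower, with a median of -0.99, so the values did not rise steadily with the number. Of the 199 tested miRNAs with a RefSeq sequence, 23 had a GC content of 70% or more, and 15 of these were higher and 2 lower, beside 35 higher and 33 lower of the 199. The median GC content was 59.1% in the higher ones with a sequence, 54.5% in the lower ones and 50.0% in all 199. Without the entries of other RNA classes it was 47.8% in the higher, 55.5% in the lower and 50.0% in all. Then 16 of 185 miRNAs had a GC content of 70% or more. Of these 16, 8 were higher and 2 lower, beside 25 higher and 32 lower of the 185. The limit set by the filter holds for both of these GC counts too. For example, miR-663b and miR-4466, both with a GC content above 70%, had 0 lysate counts. The letters GGAG occurred in 14.3% of higher, 12.1% of lower and 10.1% of all mature sequences, and CCCU in 11.4%, 15.2% and 10.1%.

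Counts were then summed over miRNAs with the same seed, which removes the question of how reads were divided within a family, but not between families. Of 150 seed families, 23 (15.3%) were higher in total exRNA and 27 (18%) lower. Most families had 1 tested member. Among the 34 with 2 or more, 6 were higher and 9 lower, and none of these 15 overlapped between the groups. Over all 150, 15.3% lay wholly above and 26.7% wholly below the lysate. The losses fell on the miR-25/92, miR-378, let-7, miR-196, miR-103a and miR-107, miR-320, miR-125 and miR-200b, miR-200c and miR-429 seeds and on the shared seed of the miR-200a and miR-200b 5p arms. The gains fell on miR-141/200a, miR-27 and miR-148 and miR-152 and on 3 seeds that contain miR-10396 or miR-663a.

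The miR-25/92 seed, which targets the mRNA of pro-apoptotic BIM, had 473234, 371416 and 291945 CPM in lysate and 160935, 122435, 143489 and 108852 CPM in total exRNA (log2 fold change -1.5 ± 0.26 (SE), adjusted p = 1.72e-04). Within batches 1 to 3 the log2 differences were -1.56, -1.60 and -1.02. All 3 tested members were lower, although miR-25-3p (-0.81 ± 0.28) lost its call in 5 of 7 leave-one-out fits and with the replicate block (adjusted p = 0.0699). miR-92a-3p made up 92.5, 90.0 and 89.6% of the family in lysate and 87.6, 85.3, 86.4 and 84.4% in total exRNA. The let-7 family, which opposes proliferation and stem-cell programmes, had 14587, 34493 and 20830.2 CPM in lysate and 6025, 12519, 7263 and 9719 CPM in total exRNA (log2 fold change -1.39 ± 0.36 (SE), adjusted p = 0.00422). Its groups did not overlap, but without cell lysate replicate 2 the adjusted p was 0.0621. Of its 9 tested members, let-7a-5p and let-7b-5p were lower (log2 -1.97 and -1.45), none was higher, and let-7g-5p (-0.05 ± 0.63) and let-7f-5p (-0.75 ± 0.82) were not called.

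The miR-378 seed fell from 18949, 15533 and 18043 to 7825, 7931, 5419.6 and 5193 CPM (log2 fold change -1.41 ± 0.25 (SE), adjusted p = 1.72e-04), and miR-320, a family made by Dicer without Drosha, from 22892, 22659.9 and 21990.1 to 6938, 16499, 7410.4 and 8553 CPM (log2 fold change -1.19 ± 0.35 (SE), adjusted p = 0.0107). In miR-320 the total exRNA library closest to the lysate was replicate 2. miR-103a and miR-107 fell from 77471, 52150.3 and 87074 to 37404, 18275, 32628 and 37737 CPM (log2 fold change -1.20 ± 0.34 (SE), adjusted p = 0.00841), with an adjusted p of 0.0639 without cell lysate replicate 3. The falls of the miR-196, miR-125 and miR-200a/b 5p seeds (adjusted p = 0.0396, 0.0432 and 0.05) were lost with the replicate block (adjusted p = 0.0871, 0.0501 and 0.06). Each was also lost in 6 or 7 of 7 leave-one-out fits. The fall of the seed of miR-200b, miR-200c and miR-429 (log2 fold change -0.76 ± 0.24 (SE), adjusted p = 0.0174) was lost in 4 of 7, with adjusted p up to 0.0898 without cell lysate replicate 3, and with library size alone (adjusted p = 0.18). In this seed only miR-200c-3p was lower, while miR-200b-3p was at 0.49 ± 0.49 (adjusted p = 0.457) and miR-429 at 1.07 ± 0.71 (adjusted p = 0.272). With library size alone miR-320 missed the threshold too (adjusted p = 0.0993).

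On the side of the gains, miR-141/200a rose from 872, 2220.1 and 2674 to 6469, 5919, 5936 and 6081 CPM (log2 fold change 1.65 ± 0.34 (SE), adjusted p = 6.82e-04). The 4 total exRNA values lay close together, above a wide range in lysate whose lowest value was replicate 1. miR-27 rose from 2652, 3929.6 and 3174 to 7069, 8568, 7318 and 8108 CPM (log2 fold change 1.25 ± 0.28 (SE), adjusted p = 0.00154), and both members were higher. miR-148 and miR-152 rose from 1361, 1976 and 2481 to 3652, 6378, 4129 and 4359.6 CPM (log2 fold change 1.25 ± 0.40 (SE), adjusted p = 0.019), with adjusted p values of 0.0539 without total exRNA replicate 2 and 0.06 without cell lysate replicate 1. The miR-15/16 and miR-30 seeds also lay higher in every total exRNA library but were not called (0.69 ± 0.28, adjusted p = 0.059, and 0.73 ± 0.31, adjusted p = 0.0643). The seed shared by miR-744-5p and miR-10396a-5p rose as a sum (log2 fold change 1.17 ± 0.32 (SE), adjusted p = 0.00617) although its members went opposite ways: miR-744-5p held 100, 99.7 and 100% of it in lysate and 8.97, 21.7, 9.73 and 9.35% in total exRNA. Without the entries of other RNA classes, which removes miR-10396a-5p, it fell by 1.80 on the log2 scale. miR-10396a-5p lies whole within miR-10396b-5p, which has another seed, so the rise of the sum depends on an uncertain split of reads.

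**Figure D3:**
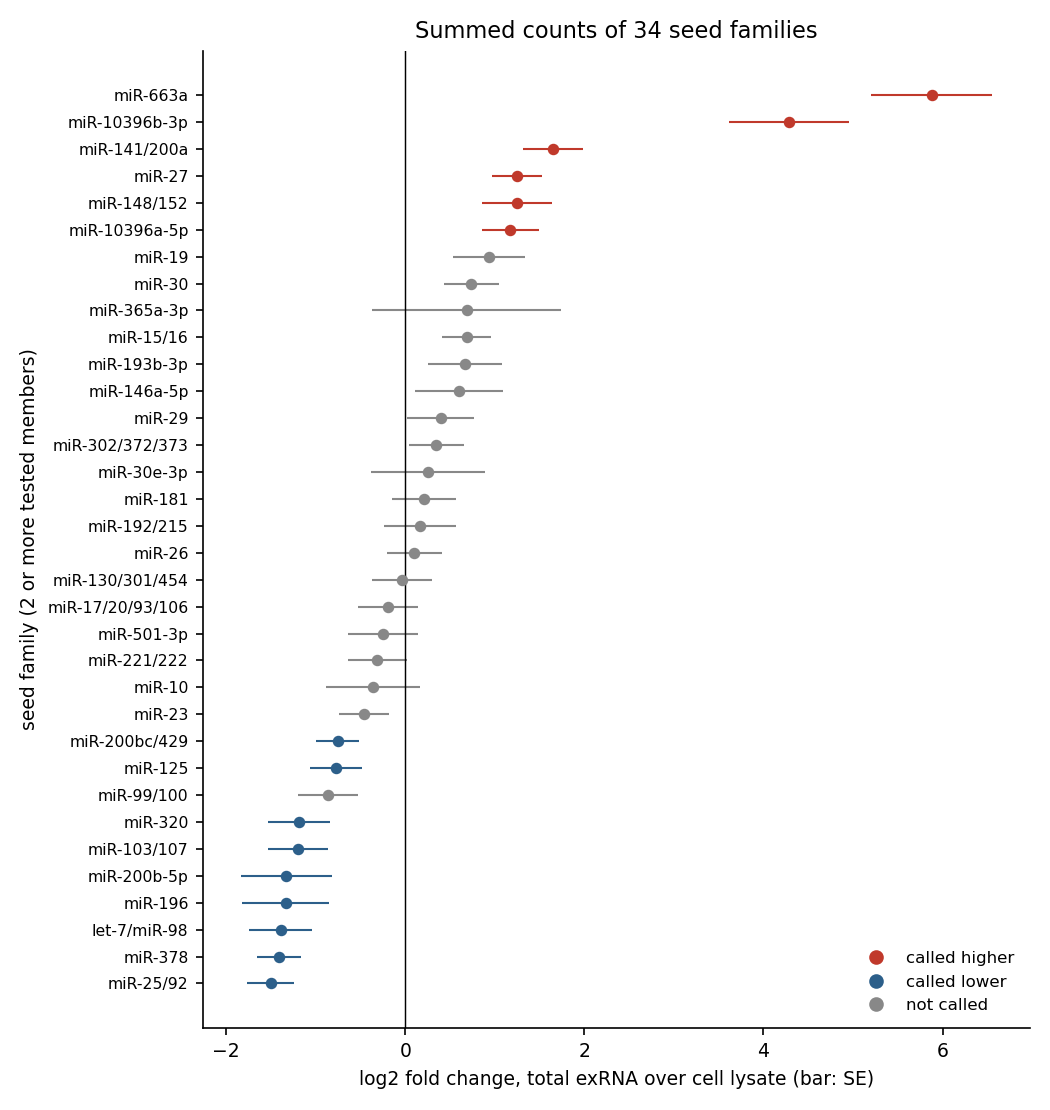
Log2 fold change of summed counts, total exRNA over cell lysate (horizontal axis, bars are SE), for the 34 seed families with 2 or more tested members (vertical axis), coloured by call. The 9 families called lower lie between -1.5 and -0.76 and the 6 called higher between 1.17 and 5.88.

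Within a family, a member was also set against the sum of its other tested members. This ratio is taken inside each library, so scaling between libraries does not enter it. Of 90 members, 11 (12.2%) rose and 11 (12.2%) fell relative to their seed mates, and the 2 members of a pair are mirror images. The libraries did not overlap for 21.1% of the members on the higher and 17.8% on the lower side. In the miR-23 pair, miR-23a-3p made up 27.4, 26.0 and 27.8% of the pair in lysate and 44, 54.2, 44.5 and 49.9% in total exRNA (difference in log2 ratio 1.32 ± 0.24 (SE), adjusted p = 3.02e-04). The shares were tight in both groups and did not overlap, and the pair differs at a single aligned base.

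Shifts of this kind occurred in several families. miR-130b-3p fell from 82.5, 82.1 and 90.9% to 62, 47.0, 60.9 and 62.6% of the miR-130, miR-301 and miR-454 seed (difference in log2 ratio -2.07 ± 0.32 (SE), adjusted p = 8.69e-05), while the seed as a whole was not called (log2 fold change -0.04 ± 0.34 (SE), adjusted p = 0.943). In it, miR-301a-3p, miR-301b-3p and miR-130a-3p were called higher as single miRNAs (log2 1.98, 1.62 and 2.07). The last 2 each lost their calls in 4 of 7 leave-one-out fits (adjusted p up to 0.11 and 0.201, both without cell lysate replicate 2), and miR-301b-3p also with the replicate block (adjusted p = 0.0886). miR-301a-3p lost its call in none. miR-93-5p fell from 89.2, 76.4 and 72.7% to 57.9, 59.3, 59.9 and 67.3% of the miR-17, miR-20, miR-93 and miR-106 seed, a set of cell cycle miRNAs (difference in log2 ratio -1.39 ± 0.31 (SE), adjusted p = 0.00286) and the summed seed was again not called (-0.19 ± 0.34). let-7a-5p fell from 47.1, 52.1 and 52.5% to 29.4, 40.2, 34.5 and 29.1% of its family (difference in log2 ratio -1.04 ± 0.24 (SE), adjusted p = 0.00419).

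miR-372-3p took 27.1, 29.2 and 21.1% of the pair with miR-373-3p in lysate and 33.5, 50.0, 35.8 and 37.5% in total exRNA (difference in log2 ratio 0.89 ± 0.27 (SE), adjusted p = 0.0177). The groups did not overlap. Replicate 2 had the highest share, and without it the log2 difference was 0.68 (adjusted p = 0.0545). The adjusted p was 0.0833 without cell lysate replicate 3. In the miR-25/92 seed, miR-25-3p took 6.62, 9.07 and 9.59% in lysate and 11.8, 13.9, 13.0 and 14.9% in total exRNA (difference in log2 ratio 0.77 ± 0.21 (SE), adjusted p = 0.0132), so it fell less than miR-92a-3p did, with an adjusted p of 0.0736 without cell lysate replicate 1. miR-200c-3p fell from 99.2, 96.6 and 94.0% to 91.0, 88.1, 91.8 and 92.2% of the miR-200b, miR-200c and miR-429 seed (difference in log2 ratio -1.90 ± 0.48 (SE), adjusted p = 0.00781), with an adjusted p of 0.059 without cell lysate replicate 1.

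**Figure D4:**
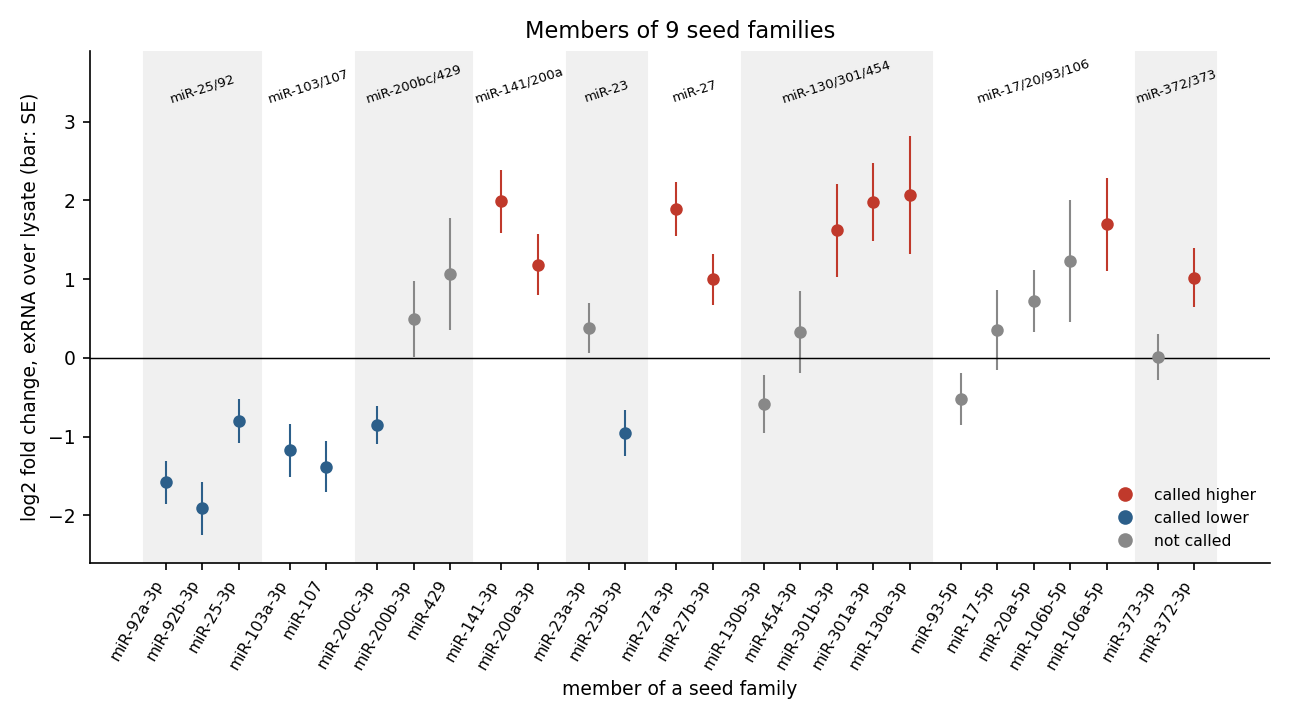
Log2 fold change, total exRNA over cell lysate (vertical axis, bars are SE), of the tested members of 9 seed families (horizontal axis, shaded by family), coloured by call. Members of the miR-25/92 and miR-103a and miR-107 seeds all lie below 0 and those of miR-141/200a and miR-27 above it, while the miR-23, miR-130, miR-301 and miR-454 and miR-17, miR-20, miR-93 and miR-106 members spread over both sides.

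Counts were summed next over hairpins that lie on 1 strand within 10 kb of each other. miRNAs made at more than 1 locus, such as miR-92a-3p and miR-19b-3p, were left out of these sums, and so were products with no matched hairpin, so a sum need not hold the whole cluster. Of 114 loci, 18 (15.8%) were higher in total exRNA and 24 (21.1%) lower, and in 16.7% all total exRNA libraries lay above the lysate and in 24.6% below it. Among the 27 with 2 or more tested members, 2 were higher and 7 lower. The 2 higher ones are the miR-10396a and miR-10396b hairpins. The 7 lower ones included sums from introns of MCM7, DALRD3 and SPACA6. They also took in the sum of miR-192-5p, miR-192-3p and miR-194-3p, and the sum over the miR-200c and miR-141 hairpins. The lower locus with the highest adjusted p (log2 fold change -1.13, adjusted p = 0.0383) is not described further. That locus lost its call in 6 of 7 leave-one-out fits, also in that without total exRNA replicate 2. Its adjusted p was up to 0.339, without cell lysate replicate 1, and 0.181 with library size alone. Of the 9 called loci, 7 did not overlap between the groups. The sum with miR-192 and miR-194-3p (log2 fold change -0.86, adjusted p = 0.031) lost its call in 5 of 7 leave-one-out fits. Its adjusted p was up to 0.292, without cell lysate replicate 2, and 0.203 with library size alone. In it, miR-192-5p was not called (log2 fold change 0.01, adjusted p = 0.994).

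The sum over the miR-25 and miR-106b hairpins in an intron of MCM7 (chr7:100093560-100093643 and chr7:100093993-100094074), a gene of the replicative helicase, fell from 35559.7, 38963 and 31817 to 21571, 18882, 21144 and 18244 CPM (log2 fold change -0.83 ± 0.26 (SE), adjusted p = 0.0154). At the miR-191 and miR-425 hairpins in an intron of DALRD3 (chr3:49020618-49020709 and chr3:49020148-49020234), the sum of miR-191-5p, miR-191-3p and miR-425-3p fell from 27429, 29964 and 29014 to 16746, 19414, 13807 and 14189.6 CPM (log2 fold change -0.84 ± 0.26 (SE), adjusted p = 0.014). The miR-99b, let-7e and miR-125a hairpins in an intron of SPACA6 (chr19:51692612-51692681 to chr19:51693254-51693339) fell from 6979, 10316 and 8313 to 4329.9, 5697, 3521 and 4276 CPM (log2 fold change -0.94 ± 0.29 (SE), adjusted p = 0.0128). None of the 3 overlapped between the groups. These sums leave out miR-93-5p, also from MCM7, which was not called, and miR-425-5p. miR-425-5p lay higher in every total exRNA library without a call (log2 fold change 0.47 ± 0.29 (SE), adjusted p = 0.224). Each of the 3 sums lost its call in 2 or 3 of 7 leave-one-out fits, with adjusted p up to 0.0877, 0.0664 and 0.0979, all without cell lysate replicate 2. With library size alone the adjusted p values were 0.108, 0.159 and 0.136. The miR-378a hairpin, with both arms summed, fell more (log2 fold change -1.40 ± 0.23 (SE), adjusted p = 4.19e-05) and kept its call in all 7.

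Neighbours from 1 transcript did not always move together. At the miR-200c and miR-141 locus on chromosome 12 (chr12:6963699-6963766 and chr12:6964097-6964191, in an intron of the noncoding host MIR200CHG), miR-200c-3p fell (log2 -0.85 ± 0.24) and miR-141-3p rose (1.99 ± 0.40). The sum followed miR-200c (log2 fold change -0.68 ± 0.23 (SE), adjusted p = 0.0206) and its call was lost in 5 of 7 leave-one-out fits, with adjusted p up to 0.1. At the miR-23b and miR-27b locus on chromosome 9 (chr9:95085208-95085304 and chr9:95085445-95085541), miR-23b-3p fell (-0.95 ± 0.29, adjusted p = 0.0136) and miR-27b-3p rose (1.00 ± 0.32, adjusted p = 0.0198), and the sum was not called (log2 fold change -0.41 ± 0.24 (SE), adjusted p = 0.179). The call of miR-23b-3p was lost without total exRNA replicate 4 and without cell lysate replicate 1, and that of miR-27b-3p without total exRNA replicate 2 and without cell lysate replicate 1, with adjusted p up to 0.131 and 0.064. With library size alone miR-23b-3p was at -0.63 (adjusted p = 0.0917) and miR-27b-3p at 1.30 (adjusted p = 0.00213). The paralogous hairpins on chromosome 19, miR-23a and miR-27a (chr19:13836587-13836659 and chr19:13836440-13836517), gave miR-27a-3p higher and miR-23a-3p not called (0.38 ± 0.32).

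The stem-cell cluster of miR-371a, miR-372 and miR-373 on chromosome 19 (chr19:53787675-53787741 to chr19:53788705-53788773) took 107970, 141761 and 110434 CPM in lysate and 114741, 203185, 105497 and 106186 CPM in total exRNA, so replicate 2 of total exRNA lay above the lysate range, replicate 1 within it and replicates 3 and 4 just below it (log2 fold change 0.14 ± 0.28 (SE), adjusted p = 0.748). Of its 5 tested products only miR-372-3p was called. In the miR-17~92 cluster on chromosome 13, summed without products of more than 1 locus, lysate held 7119, 17517 and 25824 CPM and total exRNA 23632, 22389, 22379 and 29462 CPM (log2 fold change 0.54 ± 0.33 (SE), adjusted p = 0.206). Its products miR-19a-3p and miR-18a-3p were called in opposite directions (log2 1.26 and -1.43), and lost their calls in 3 and 2 of 7 leave-one-out fits, with adjusted p up to 0.147 without total exRNA replicate 2 and 0.105 without cell lysate replicate 2.

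Finally, the 2 arms of a hairpin were compared within each library, for the 35 hairpins with both arms tested. The 5p share was higher in total exRNA for 6 (17.1%) and lower for 1 (2.86%), by limma on the log2 ratio of the arms. On that ratio, taken with a prior count of 2 that sets the order where an arm has few counts, the groups did not overlap in 25.7% on the higher and 14.3% on the lower side. miR-194 changed most. Its 5p arm took 46.9, 19.8 and 33.5% of the counts of both arms in lysate and 93.6, 82.1, 88.8 and 93% in total exRNA (difference in log2 ratio 4.11 ± 0.62 (SE), adjusted p = 1.18e-07). All total exRNA libraries lay above all lysate libraries, and the call held without any single library. As single miRNAs the 3p arm was called and the 5p arm was not: miR-194-5p, which is also made by a second hairpin, MIR194-1 on chromosome 1, was not called (log2 fold change 0.20 ± 0.44 (SE), adjusted p = 0.784), while miR-194-3p, made only by MIR194-2 on chromosome 11 (chr11:64891355-64891439, in an exon of the noncoding host MIR194-2HG), fell as given above. In lysate replicates 1 to 3 the 5p arm had 91, 174 and 144 counts, fewer than the 3p arm in each library.

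**Figure D5:**
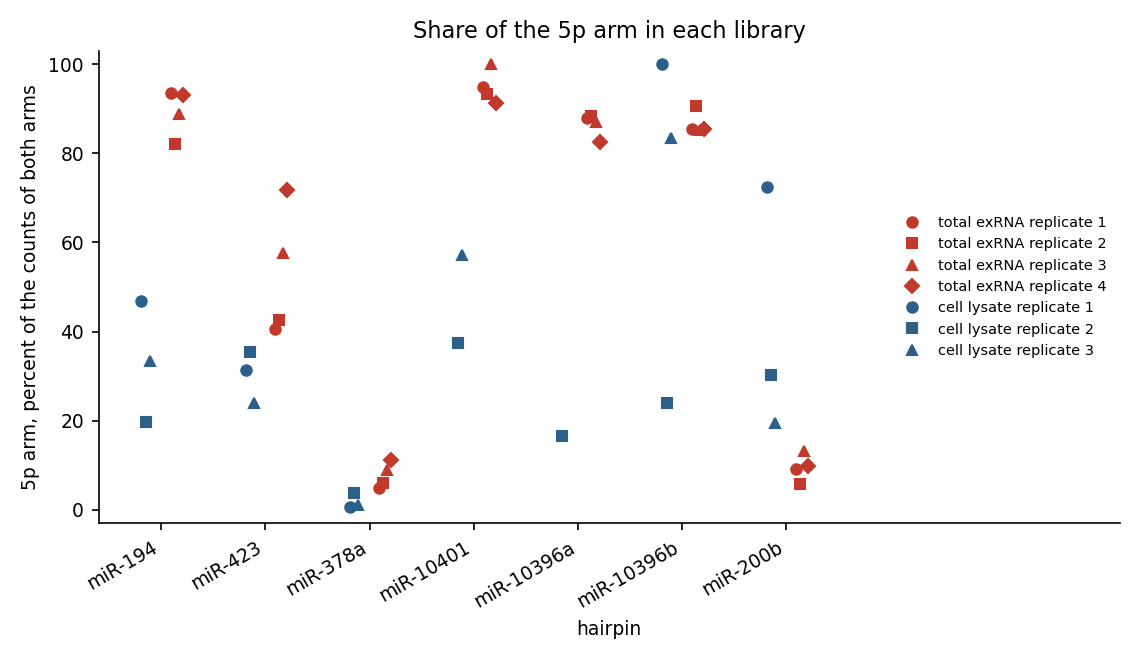
Share of the 5p arm in the counts of both arms of a hairpin (vertical axis, percent) for the 7 hairpins with a called arm ratio (horizontal axis), in each cell lysate library (blue) and total exRNA library (red). For miR-194 the red points lie between 82.1% and 93.6% and the blue ones between 19.8% and 46.9%, and libraries with 0 counts of both arms have no point.

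miR-423 shifted less. Its 5p share was 31.5, 35.5 and 24.0% in lysate and 40.6, 42.6, 57.7 and 71.8% in total exRNA (difference in log2 ratio 1.42 ± 0.37 (SE), adjusted p = 0.0024), with no overlap and replicate 4 highest. In miR-378a, where the 3p arm dominates, the 5p share was 0.558, 3.88 and 1.17% in lysate and 4.84, 5.95, 9 and 11.2% in total exRNA (difference in log2 ratio 2.36 ± 0.68 (SE), adjusted p = 0.00624). That call was lost without cell lysate replicate 1 (adjusted p = 0.079), the library in which the 5p arm had 3 counts. The 1 lower ratio was miR-200b, with a 5p share of 72.4, 30.3 and 19.5% in lysate and 9.09, 5.79, 13.2 and 9.86% in total exRNA (difference in log2 ratio -2.50 ± 0.87 (SE), adjusted p = 0.0245). It was lost in 4 of 7 leave-one-out fits, with adjusted p up to 0.272 without cell lysate replicate 1, and at a prior count of 0.5 (adjusted p = 0.149). Its neighbour miR-200a had the same order of groups, 48.4, 21.0 and 33.0% against 12, 2.26, 11.1 and 10.9%, without a call (difference in log2 ratio -2.38 ± 0.96 (SE), adjusted p = 0.0576).

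The 3 remaining arm calls rest on few lysate counts. For miR-10396a the lysate held 6 counts of both arms, all in replicate 2, and for miR-10401 it held 15. For miR-10396b, lysate replicates 1 to 3 had 4, 25 and 6 counts of both arms, and their 5p shares, 100, 24 and 83.3%, lay on both sides of the total exRNA shares, 85.3, 90.5, 85.3 and 85.4%. Its adjusted p was 0.222 without cell lysate replicate 2 and 0.0635 without total exRNA replicate 2. For the other 28 hairpins no shift was called. Among them, miR-93 had 99.3% to 99.7% of counts on the 5p arm in all 7 libraries, and miR-17 had 89.8% to 96.9%. The shares of miR-17 overlapped between the groups. Those of miR-93 were 99.54% or more in total exRNA and 99.53% or less in lysate. The log2 ratios of miR-93, taken with the prior count, overlapped.

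Markers of other cell types were low in both groups. The blood cell list held 0.284, 0.274, 0.232 and 0.171% of the counts in total exRNA and 0.0801, 0.132 and 0.176% in lysate, and of its 4 tested members 2 were higher and none lower, beside 18.9% and 16.3% over all tested miRNAs. The red cell miRNA miR-451a had 7, 32, 6 and 5 counts in total exRNA and 0 in each lysate library (at least 19.2-fold), the most in replicate 2. miR-486-5p, also a red cell miRNA, was at 523, 451 and 467 CPM in lysate and 2113, 932, 1364 and 694 CPM in total exRNA (log2 fold change 1.41 ± 0.49 (SE), adjusted p = 0.0326), with the call lost in 5 of 7 leave-one-out fits (adjusted p up to 0.119, without total exRNA replicate 1). The white cell markers miR-223-3p and miR-142-3p had 1 and 5 counts over total exRNA and 0 and 1 over lysate. The more frequent miR-155-5p, found in activated white cells and in other cells, had 15, 32, 19 and 9 counts in total exRNA and 10, 120 and 71 in lysate and was not called (log2 fold change -1.13 ± 0.47 (SE), adjusted p = 0.0674). The liver, mesenchyme and muscle lists gave no called member among 1, 1 and 0 tested, and the neural list 1 of 5, miR-9-3p, whose call was lost without cell lysate replicate 1 or 3. The part of these cell types in the differences was not tested.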

How the data were processed

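Small RNA libraries were made with the RealSeq-AC v2 kit and read as 50-bp single ends, per the labels. Each deposited file gives counts per mature miRNA, made by the authors; the submitters' processing notes name cutadapt 1.16, FastQC, Bowtie2 and GRCh38. Aligner settings, multi-mapping and the miRNA annotation release are not given in the sources used here. A miRNA absent from a file was taken as 0. 1 library with 48 counts was left out, and the other 18 entered each fit so that they shared an estimate of the spread. miRNAs passed at edgeR's filter (minimum count 10, total 15). Tests were the edgeR 4.0.16 quasi-likelihood test for single miRNAs and for counts summed by seed or locus, with the TMM factors of the single miRNAs, and limma 3.58.1 on log2 ratios (prior count 2) for arms and members, in R 4.3.3, with Benjamini-Hochberg adjustment over all items of a kind. DESeq2 1.42.0 was an alternative. The scripts were tested on simulated data. Seeds came from RefSeq (199 of 227 tested miRNAs had a sequence). Members of hand-made family lists without a sequence took the seed of their family, so 205 tested miRNAs had a seed. Hosts came from GENCODE, with rRNA and small RNA genes left out of the search. Members and lists were chosen with earlier results of these data known. Named were the 12 largest rises and falls without overlap at 100 CPM or more, the 8 most frequent miRNAs of each group, list members, and called families, loci, arms and members; those beyond the 10 largest, and any further miRNA, were chosen after values were seen. Without molecular identifiers, intervals and floors cover counting error only. Batch equals the replicate number per the labels; deviations of same-numbered libraries correlated at 0.184, 0.159 and -0.251, and the main tests carry no block, while a fit with this number as a block was an alternative.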

Additional observations from a re-analysis of the deposited data

Results flagged for a closer look

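Of 122 values checked over the 4 total exRNA libraries, 8 had 1 library far from the other 3, where chance gives about 1 in 20. In 7 of the 8 that library was replicate 2. There miR-182-5p reached 9411 CPM against 1991 to 2217 in the others, and its neighbour miR-183-5p reached 4114 CPM against 805 to 1304. Both are sensory and epithelial miRNAs. miR-215-5p, which shares its seed with the gut miRNA miR-192-5p, reached 2812 CPM against 889 to 1198. In the stem-cell cluster on chromosome 19, miR-372-3p reached 83399 CPM against 27116 to 29989.8 and miR-371a-3p 20613 CPM against 12996 to 14176. The gut epithelium list took 5.72% of counts against 4.76% to 4.85%. The log2 ratio of the arms of miR-10396b was 3.17 against 2.51 to 2.53. In replicate 3, miR-29a-3p, known to restrain collagen genes, was at 1622 CPM against 2749 to 2974 in the other 3.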

How the results depend on the processing

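Numbers called higher stayed within 1.5 times under every alternative for single miRNAs, families, loci and arms, whereas numbers called lower did not. With library size alone 19 single miRNAs, 12 families and 12 loci were lower. Without entries of other RNA classes 16 families and 15 loci were lower, and with scaling estimated from the summed counts, an alternative chosen after seeing the data, 17 and 14. The seed of miR-744-5p reversed to -1.80 without those entries, since they include miR-10396a-5p. The 1 lower arm became 3 with only these 2 groups, 6 with no low-count filter, 2 when thinned and 0 at a prior count of 0.5, where the members higher numbered 6. Leaving out 1 library gave 20 to 41 lower single miRNAs, 13 to 30 lower families, 12 to 26 lower loci, 0 to 1 lower arms and 4 to 9 higher members. The libraries that moved these counts by over 1.5 times were total exRNA replicate 4 (24 lower single miRNAs, 16 families, 14 loci) and replicate 3 (17 families), cell lysate replicate 2 (20, 13 and 12), and cell lysate replicates 1 and 3 (4 and 7 higher members). No arm was lower without total exRNA replicate 1, 2 or 4 or cell lysate replicate 1.

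With the replicate number as a block, 37 single miRNAs were higher and 30 lower, 142 of 157 named values kept their side of the threshold and 15 lost their call, with no called value changing sign. Over all alternatives of the 157 values, 1761 kept their side of the threshold, 344 lost the call, 26 gained one and 1 called value reversed. Some values that were not called, such as miR-373-3p and let-7f-5p, changed sign without a call either way. In lysate, 3 counts equal up to 105 CPM, which limits what can be said of entries near 0 there.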
